A study of Mus musculus with 87 samples.

Results

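A set of 36 genes was described that fell to at most 0.5 times the control level in mouse 2-cell (2C) embryos when *Obox4* and *Dux* were knocked down together, while each single knockdown left them at 0.75 times or more. The members were chosen from 55487 annotated genes by mean CPM, the count of a gene as a share of its library's total count, scaled so that every library has the same total. A member had a mean of at least 5 CPM in the scramble knockdown, both double knockdown libraries below both scramble libraries, and the ratios given above. The mean reached 5 CPM in scramble embryos for 9340 genes, and 297 of these met the double knockdown condition. Of the 297, 261 did not meet the condition on the single knockdowns: 113 fell under 0.75 times scramble in the *Dux* knockdown alone, 15 in the *Obox4* knockdown alone and 133 in both. These values chose the members, so they are given as a description with no test.

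B6D2F1 zygotes were injected in the male pronucleus with antisense oligonucleotides (ASOs), and RNA was sequenced from 2 libraries of 30 pooled 2C embryos per group. All groups were WT in genotype. The groups were scramble KD (40 µM scramble ASO), *Obox4* KD and *Dux* KD (20 µM of the one ASO), double KD (40 µM of both ASOs in equal parts) and rescue, in which the 40 µM mixture was injected with 100 ng/µL of codon-optimized *Obox4* mRNA. The single knockdowns therefore received 20 µM of ASO in total and the other groups 40 µM. The members were then followed in morulae after scramble or double KD (B6D2F1, 2 libraries each), in single blastomeres of *Dux* KO 2C embryos labelled *Obox4* WT, Het or KO (B6D2F1, 2 libraries each), and in 129/Ola mouse embryonic stem cells (mESCs). The mESC libraries (3 per group) came from WT cells and from cells with KO of *Obox4*, of *Dux* or of both (double KO) in pladienolide B (PlaB), a splicing inhibitor under which mESCs take on features of totipotent blastomeres, and from cells carrying 3×FLAG-*Obox4* under a doxycycline-dependent promoter, sampled at 0, 12 and 48 h. Nothing in the labels says that mESC libraries of one group came from separate cultures, so their p-values may measure technical spread. For the 48 h induction the paper states 3 biological replicates. Every knockout line of mESCs was grown from single-cell clones, and the double KO was made from *Obox4* KO cells. Clone and genotype therefore cannot be told apart for any knockout, including that of *Obox4* alone.

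Zygotic genome activation is the onset of transcription in the embryo after fertilization, and in mice its major wave occurs at the 2C stage. DUX is a homeodomain protein that binds and activates 2C genes and the long terminal repeats of the retrovirus MERVL. OBOX4 is a homeodomain protein of the oocyte-specific homeobox family, encoded by a multicopy gene. The study asked whether these factors overlap in function, and the selection describes genes that fell when both were reduced and less so with either one.

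The 3 ASOs are shown because every group in the selection was defined by them. They are written 5′ to 3′, with the 2′-methoxyethyl (MOE) modified wings in capitals and the central DNA gap, where RNase H cuts the paired RNA, in lower case.
ASO_Obox4: ACTTGattgcagtggACGTG
ASO_Dux: GATTCctgcggttctGAAAC
ASO_scramble: AGCGCgggtattgaaCCAGG
No annotated transcript of the 36 members held a run of 14 or more bases complementary to an ASO, and among 9328 expressed genes 3 did for ASO_Dux and 0 for the others. The longest such run in a member was 11 of 20 bases, for ASO_Dux, and ASO_Obox4 and ASO_scramble had none of 10 or more. Over all genes searched, the longest run for ASO_Obox4 was 13 bases.

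The targets were checked first. *Obox4* reads fall on 39 annotated copies. One of them, *Obox4-ps35*, gave most of the *Obox4* counts and was not lower in *Obox4* KD, at 60.6 and 78.6 CPM against 51.1 and 54.3 in scramble KD. Whether *Obox4-ps35* holds a site for ASO_Obox4 was not checked separately. None of the other 38 copies reached 5 CPM in scramble KD, so they were outside the ASO search above. The other 38 copies summed to 11.1 and 16.4 CPM in scramble KD, 3.73 and 2.97 in *Obox4* KD, 5.28 and 3.08 in *Dux* KD, 2.29 and 2.78 in double KD and 3.41 and 2.79 in rescue. The injected mRNA is codon-optimized, so its reads need not be counted as *Obox4*. *Duxf3*, the annotated *Dux* gene, stood at 5.89 and 7.15 CPM in scramble KD, 7.91 and 5.41 in *Obox4* KD, 3.86 and 1.98 in *Dux* KD, 4.26 and 3.14 in double KD and 8.19 and 5.69 in rescue. The sum of the other 38 *Obox4* copies was thus lower in *Dux* KD as well. In *Obox4* KD, *Duxf3* had 1 library above and 1 below both scramble libraries. In rescue *Duxf3* likewise had 1 library above and 1 below both scramble libraries, and both were above the *Dux* KD and double KD libraries, so its RNA was not seen to be reduced there. Reads of near-identical copies were split or discarded in counting, so these sums are uncertain. They also do not measure protein: the paper stained knockdown embryos for DUX and OBOX4, and rescue embryos for OBOX4, which it found restored. In mESCs it reported that *Dux* and *Obox4* each raised the other.

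Library totals were 26148176 to 69461986 counts in 2C embryos and 14283083 to 104864947 in the other experiments. No cumulus, sperm, fibroblast or blood marker reached 5 CPM in scramble embryos. The 13 cumulus and granulosa markers summed to 10.9 and 10.4 CPM in scramble KD and to 8.02 and 7.01 in double KD, and the 10 sperm markers to 3.86 and 3.4 against 5.81 and 4.62. A list of 67 two-cell genes summed to 7925 and 8097 CPM in scramble KD, 6746 and 6661 in *Obox4* KD, 5442 and 5642 in *Dux* KD, 3841 and 4031 in double KD and 5472 and 5889.9 in rescue, so the embryos differed in this whole program and its part in the members' values was not tested. In pooled embryos, fewer cells with a transcript and less of it per cell cannot be told apart.

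**Figure D1:**
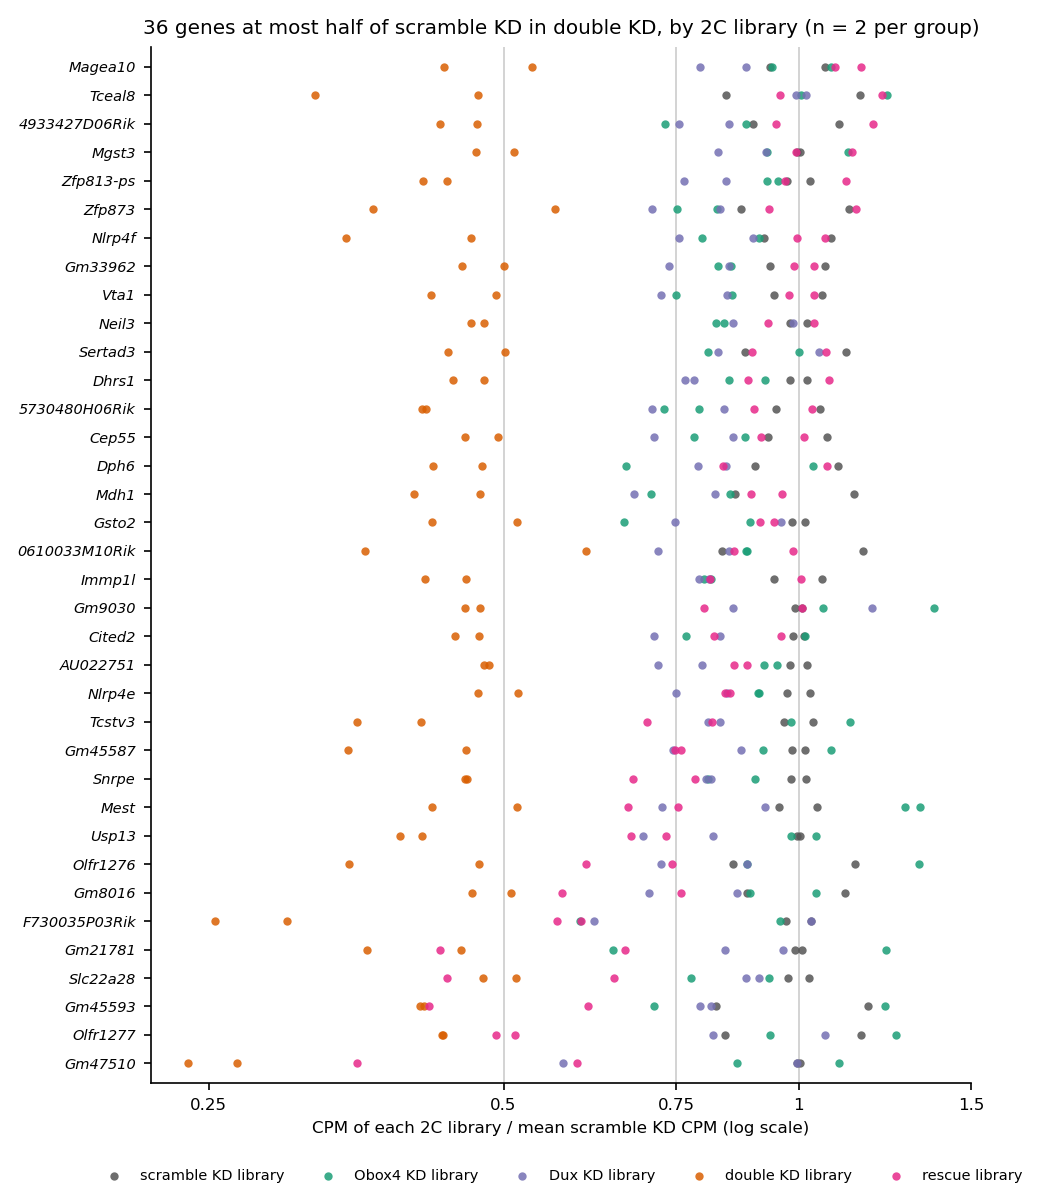
Each row is one of the 36 genes, ordered by the rescue mean, and each point is the CPM of one 2C library divided by the gene's mean CPM in scramble KD, on a log axis, with 2 libraries per group. Double KD points lie furthest left for all 36 genes except *Gm21781* and *Slc22a28*, where 1 rescue point lies as low, and *Dux* KD points lie mostly left of the scramble points.

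Over the 36 members the median ratio to scramble was 0.898 in *Obox4* KD (0.761 to 1.31), 0.805 in *Dux* KD (0.751 to 1.02) and 0.457 in double KD (0.253 to 0.496). Over the 9340 genes the medians were 1.03, 1.05 and 1.07. The rule used these libraries, and all ratios share the scramble libraries, so the counts that follow are a description. Both *Dux* KD libraries lay below both scramble libraries for 27 of the 36, against 22.8% of all eligible genes, and both *Obox4* KD libraries did so for 18, against 24%. The *Dux* KD ratio was below the *Obox4* KD ratio for 30 of the 36. If the effects of the single knockdowns multiplied, the double KD ratio would have had a median of 0.741, and the observed ratio was 0.627 times that product at the median. It lay below the product for 36 of 36 members, which the selection largely fixes, and for 51.2% of the 9340 genes. In the edgeR quasi-likelihood fit across 23085 genes all 36 were called lower in double KD (3.16% of genes tested were), which follows from the selection. None was called in either single knockdown (0.412% of genes in *Obox4* KD and 4.3% in *Dux* KD), which the limit of 0.75 also largely fixes. In that fit 26 of 36 had an unadjusted p under 0.05 in *Dux* KD (31.6% of all genes) and 16 in *Obox4* KD (19.2%).

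The single knockdown condition depended on how the libraries were scaled. CPM by library total was used for the selection. Trimmed mean (TMM) scaling, which assumes that most genes do not change, moved the median log2 ratio of the 9340 genes by -0.24 in double KD, -0.18 in *Dux* KD, -0.07 in *Obox4* KD and -0.11 in rescue. It did not centre these genes: their medians became -0.15, -0.11, -0.03 and -0.02 in that order. By library total they were 0.09, 0.07, 0.04 and 0.1, so for double KD and *Dux* KD the TMM medians lay further from no change. With TMM all 36 members stayed at or below 0.5 in double KD, but 27 fell under 0.75 in *Dux* KD and 4 in *Obox4* KD. Applied with TMM the rule gave 51 genes, of which 8 were among the 36: *Mgst3*, *Olfr1277*, *Sertad3*, *Neil3*, *Gm21781*, *Gm9030*, *Slc22a28* and *Tceal8*. TMM lowered the double KD ratios, so all 36 staying at or below 0.5 follows from the shift and is no check of the decrease. The label "only" held under both scalings for these 8. For the other 28, *Dux* KD or *Obox4* KD alone was also under 0.75 with TMM.

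Values just beside the limits show how closely the set was drawn. *Mdh1* and *Usp13* were inside the *Dux* KD limit at 0.751 and 0.756, and *Ctbp2* and *Gm9141* outside it at 0.748 each. *Snrpb2* missed the *Obox4* KD limit at 0.749. *Slc22a28* and *Nlrp4e* were inside the double KD limit at 0.496 and 0.494, and *Trappc2* and *Gm27013* outside it at 0.509 and 0.51. The lowest scramble level inside was 5.03 CPM (*Gm47510*), and *Dppa3-ps* was outside at 4.68. With the roles exchanged, the same rule found 0 genes lowered only by *Dux* KD and 1 lowered only by *Obox4* KD.

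The members were of mixed kind. Protein-coding genes made up 25 of them (69.4%, against 92.1% of the 9340), long intergenic noncoding RNAs (lincRNAs) 8 (22.2% against 2.44%) and pseudogenes 3. Their exonic length had a median of 2481.5 bases, against 4730. They lay on 13 chromosomes, with 5 on chromosome 10, and the only neighbouring pair was the olfactory receptor genes *Olfr1276* and *Olfr1277*, 2920 bases apart on chromosome 2. Of the lists of known function, the two-cell list held 1 member (*Tcstv3*, of 28 genes of that list lowered in double KD among 62 measured), the maternal oocyte list 1 (*Nlrp4f*, of 5 lowered among 27) and the splicing list 1 (*Snrpe*, the 1 lowered among 26). None was in the lists for transcription and chromatin, nucleolus and ribosome biogenesis, ubiquitin and proteasome, energy and mitochondria, cell cycle and DNA replication, p53 and apoptosis or stress response.

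Among the most abundant members were *AU022751*, *Nlrp4f* and *Nlrp4e*. *AU022751*, an X-linked gene, had 2099 and 2181 CPM in scramble KD, 1971 and 2034 in *Obox4* KD, 1538 and 1704 in *Dux* KD, 1021 and 1035 in double KD and 1839 and 1898 in rescue. Per kilobase of exon it was also the highest, at 972 CPM per kb in scramble KD, and *Olfr1277* the lowest at 0.877. *Nlrp4f*, a member of the NLRP family and of the subcortical maternal complex, had 1437 and 1679.9 CPM in scramble KD, 1241 and 1420.01 in *Obox4* KD, 1178 and 1400.5 in *Dux* KD, 538 and 722 in double KD and 1552 and 1659.6 in rescue. Both genes showed the same order, with *Dux* KD below *Obox4* KD, but rescue returned *Nlrp4f* to the scramble level and left both *AU022751* libraries below scramble. The related *Nlrp4e* had 366 and 386 CPM in scramble KD, 343 and 342 in *Obox4* KD, 282 and 318 in *Dux* KD, 177 and 194 in double KD and 317 and 320 in rescue. Its rescue libraries lay at the upper *Dux* KD value and below both scramble libraries.

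Members with general cellular roles had lower levels. *Cep55*, which acts at the midbody when daughter cells separate, had 223 and 256 CPM in scramble KD, 187 and 211 in *Obox4* KD, 170 and 205 in *Dux* KD, 109 and 118 in double KD and 242 and 219 in rescue. *Snrpe*, a core protein of the spliceosomal snRNPs, had 79.3 and 76.6 CPM in scramble KD, 63 and 70.4 in *Obox4* KD, 62.7 and 63.5 in *Dux* KD, 35.8 and 35.6 in double KD and 61.1 and 52.9 in rescue, and neither rescue library overlapped scramble. *Mgst3*, a microsomal glutathione transferase, had 98.9 and 98 CPM in scramble KD, 91.4 and 110 in *Obox4* KD, 81.4 and 91.3 in *Dux* KD, 46.2 and 50.4 in double KD and 112 and 97.8 in rescue. *Mgst3* thus overlapped scramble in *Obox4* KD and in rescue. *Dph6*, which makes the diphthamide of elongation factor 2, stood at 0.449 times scramble in double KD, *Mdh1*, the cytosolic malate dehydrogenase, at 0.439, and the DNA glycosylase gene *Neil3* at 0.47. *Neil3* and *Gsto2* were lower in *Obox4* KD (0.832 and 0.778) than in *Dux* KD (0.921 and 0.854). *Immp1l* (a mitochondrial inner membrane peptidase), *Vta1* (an ESCRT regulator), *Dhrs1* (a short-chain dehydrogenase), *Cited2* (a transcriptional cofactor) and *Gsto2* (a glutathione transferase) stood between 0.437 and 0.469.

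The 10 lowest ratios in double KD belonged mainly to weakly expressed genes. The lincRNA *Gm47510* had 5.06 and 5.01 CPM in scramble KD, 4.35 and 5.54 in *Obox4* KD, 5.02 and 2.89 in *Dux* KD, 1.34 and 1.2 in double KD and 1.79 and 2.99 in rescue. *Tcstv3*, a 2C-stage gene of the Tcstv family, which acts in telomere elongation, had 70.1 and 65.4 CPM in scramble KD, 66.5 and 76.4 in *Obox4* KD, 56.3 and 54.7 in *Dux* KD, 24 and 27.9 in double KD and 47.4 and 55.2 in rescue. *Tceal8*, an X-linked gene of the transcription elongation factor A-like family, had 15.3 and 21 CPM in scramble KD, 22.3 and 18.3 in *Obox4* KD, 18.4 and 18 in *Dux* KD, 8.54 and 5.82 in double KD and 17.3 and 22 in rescue. For *Tceal8*, both single knockdowns and rescue overlapped scramble and double KD did not, and it met the rule under either scaling. *F730035P03Rik* (0.277), *Usp13* (0.402), *Gm45587* (0.402), *Gm21781* (0.408), *Olfr1276* (0.41) and *Gm45593* (0.413) completed the 10 with *Nlrp4f* (0.404). The fewest reads behind any 2C value of a member were 34, for *Gm47510* in double KD.

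The rescue group asks whether *Obox4* mRNA returns these genes in embryos given both ASOs, although *Duxf3* RNA was not seen to be reduced in it. Both rescue libraries lay above both double KD libraries for 34 of 36 members, against 35% of eligible genes. This direction is partly set by the choice of genes for low double KD values, so it is given with no test. The median ratio of rescue to scramble was 0.916 (0.475 to 1.12), and at the median 84.5% of the difference between double KD and scramble was recovered (9.39 to 124%). Rescue reached at least 0.75 times scramble for 25 members and at least the scramble mean for 9, which were lower shares than over the 9340 genes (69.4% against 93.2%, and 25% against 66.8%). With TMM scaling 23 members reached 0.75 and 2, *Magea10* and *Tceal8*, the scramble mean. Both rescue libraries remained below both scramble libraries for 17 (17.5% of eligible genes), and 1 was above in both (44%). Against *Dux* KD, both rescue libraries were higher for 15 members (28.7%) and lower for 6 (26.7%).

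**Figure D2:**
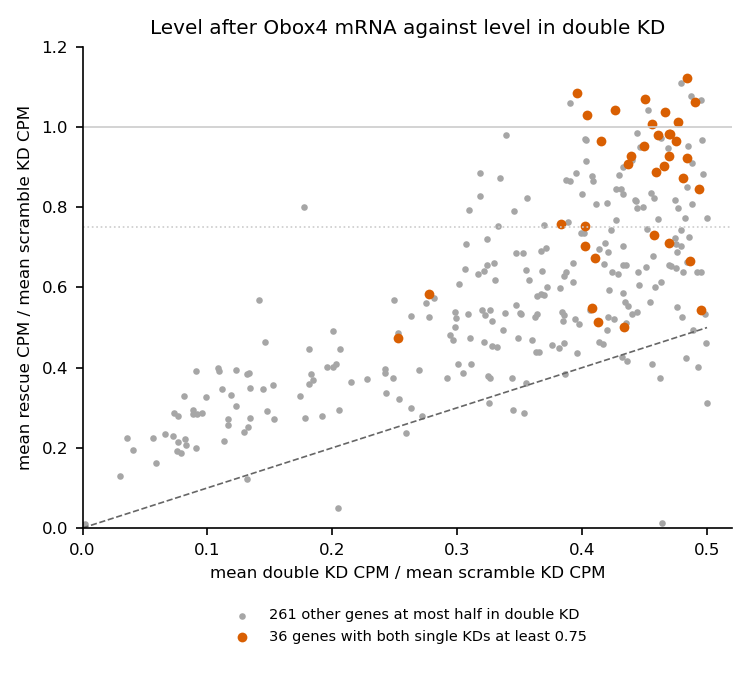
Mean rescue CPM (vertical axis) against mean double KD CPM (horizontal axis), both divided by the gene's mean scramble KD CPM, for the 36 members and the 261 other genes lowered in double KD; the dashed line marks equal levels, and the horizontal lines 0.75 and 1. Most members lie between 0.75 and 1.12 on the vertical axis, and the other genes have a median of 0.535.

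The 261 other genes lowered in double KD had a median rescue ratio of 0.535, and 55 of them (21.1%) reached 0.75, against 25 of the 36 members (69.4%). Their median double KD ratio was also lower, at 0.362 against 0.457. The rule kept members at 0.75 or more in *Dux* KD, and rescue embryos also received the *Dux* ASO, so this difference is partly set by the selection. Relative to *Dux* KD, the median of rescue was 1.08 for the members and 1.13 for the 261. The members with rescue at or above scramble were *Magea10* (1.12), *Tceal8* (1.09), *4933427D06Rik* (1.07), *Mgst3* (1.06), *Zfp813-ps* and *Zfp873* (1.04 each), *Nlrp4f* (1.03), *Gm33962* (1.01) and *Vta1* (1.01). In the 2C table that counts reads at multiple positions in fractions, 5 members reached the scramble mean. There the scramble level of *Zfp873* was 0.837 CPM against 17 in the main table, with a rescue ratio of 0.603. *Zfp813-ps* was at 21.1 against 132 CPM (rescue ratio 0.852), *Gm33962* at 67.2 against 183 CPM (0.85) and *4933427D06Rik* at 487 against 738 CPM (0.914). The values of these 4 genes thus depend on which of these counts is used, and why they were lower there was not tested. *Gm9030* was higher there, at 163 against 11.4 CPM (rescue ratio 0.987). *Magea10*, an X-linked gene of the MAGE family, had 13.7 and 15.6 CPM in scramble KD, 6.37 and 7.82 in double KD and 17 and 16 in rescue. The lowest rescue ratios were those of *Gm47510* (0.475), *Olfr1277* (0.502), *Gm45593* (0.515), *Slc22a28* (0.543), *Gm21781* (0.548) and *F730035P03Rik* (0.583). *Olfr1277* had 4.39 and 6.04 CPM in scramble KD, 4.87 and 6.55 in *Obox4* KD, 5.54 and 4.26 in *Dux* KD, 2.26 in both double KD libraries and 2.68 and 2.56 in rescue. *Slc22a28*, of the organic anion transporter family, was at 3.5 and 3.24 CPM in double KD and at 2.98 and 4.4 in rescue, and *Gm21781* at 4.46 and 5.57 and at 5.3 and 8.18. In these 2 genes alone the rescue libraries overlapped the double KD libraries.

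Levels of the members outside the 2C stage were low for many of them. The tables were scaled separately, so these levels are set side by side without a test. In morula scramble KD libraries the median member level was 0.057 times that of 2C scramble embryos, against 0.66 over the 9340 genes, and 15 members were under 1 CPM (13.8% of the 9340 genes were). In uninduced mESCs 16 members were under 1 CPM (15.4%), and in WT mESCs in PlaB 9 (10.8%). *Nlrp4e* fell from 376 CPM in 2C scramble embryos to 3.07 and 3.18 CPM in morulae and 0 to 0.0649 CPM in uninduced mESCs. *Snrpe* and *Mdh1* were expressed in every experiment, *Snrpe* with 99.1 and 100 CPM in scramble morulae and *Mdh1* with 153 to 183 CPM in uninduced mESCs.

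**Figure D3:**
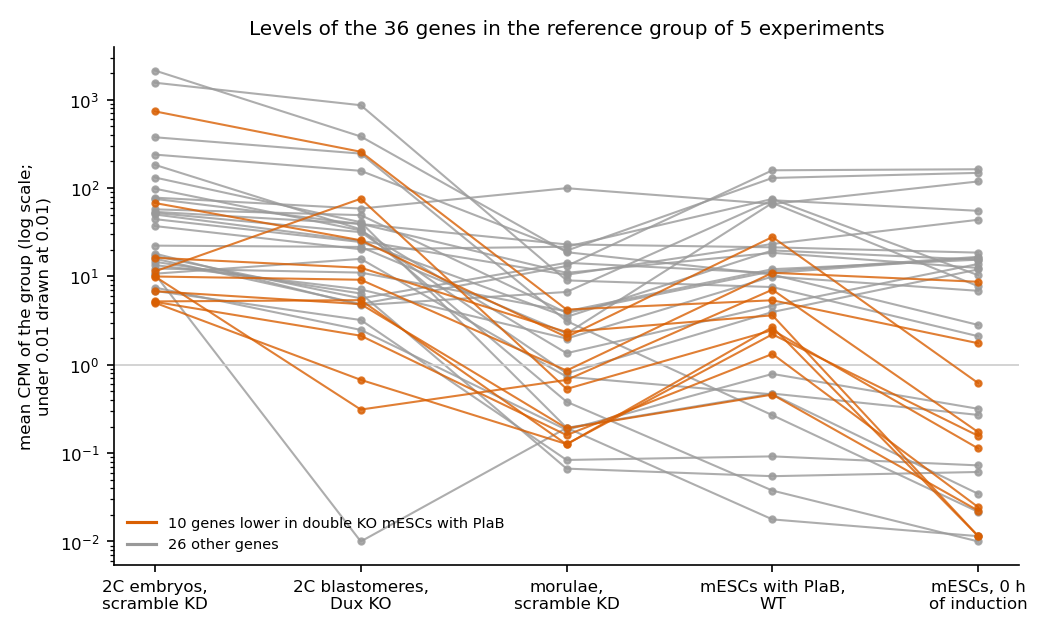
Mean CPM of each of the 36 members, on a log axis, in the reference group of 5 experiments, with one line per gene and values under 0.01 drawn at 0.01. The 10 genes lower in double KO mESCs in PlaB (orange) were at most 8.7 CPM in uninduced mESCs, whereas the other 26 (grey) reached 163.

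The members were next read in mESCs in PlaB. The 38 *Obox4* copies other than *Obox4-ps35* summed to 11.9 to 12.8 CPM in WT, 3.54, 2.63 and 7.71 in *Obox4* KO, 0.0459 to 0.0876 in *Dux* KO and 0, 0 and 0.14 in double KO. *Duxf3* was at 4.58 to 5.73 CPM in WT, 2.74, 3.49 and 5.26 in *Obox4* KO and 0 in every *Dux* KO and double KO library. The *Dux* KO cells therefore had almost no reads of these 38 *Obox4* copies either. *Obox4-ps35* is not part of these sums. In the paper the *Obox4* KO of mESCs deleted most but not all intact copies. *Obox4* KO replicate 3 and double KO replicate 3 stood apart from the other libraries of their groups: the SD of the log2 difference to them was 0.581 to 0.62, against 0.0993 to 0.218 between the other libraries of a group. Results are given with all libraries and, where they differ, without these.

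Of 33 members tested, 12 were called in double KO against WT. They were 10 that fell (8.79% of the 22328 genes tested did) and 2 that rose, *Mest* and *Mgst3* (9.25%). The median log2 fold change of the 33 was -0.44, against -0.06 over all genes. In *Obox4* KO 5 members fell (3.96%) and *Mest* rose (4.92%). In *Dux* KO 8 fell (4.7%) and *Mest* rose (1.62%). These comparisons share the WT libraries. A call required a log2 fold change of 1 or more in size and an adjusted p no higher than 0.01 in edgeR's quasi-likelihood test, with Benjamini-Hochberg adjustment over all genes. Without these libraries, a choice made after the values were seen, the members called in *Obox4* KO rose from 6 to 11, with *Tcstv3*, *Gm47510*, *Slc22a28*, *Nlrp4f* and *Cited2* added, and 13 were called in double KO. *Nlrp4f* then had a log2 fold change of -1.07 ± 0.13 in *Obox4* KO, with an edgeR adjusted p of 8.48e-07, against -0.65 ± 0.29 (0.119) with all libraries.

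**Figure D4:**
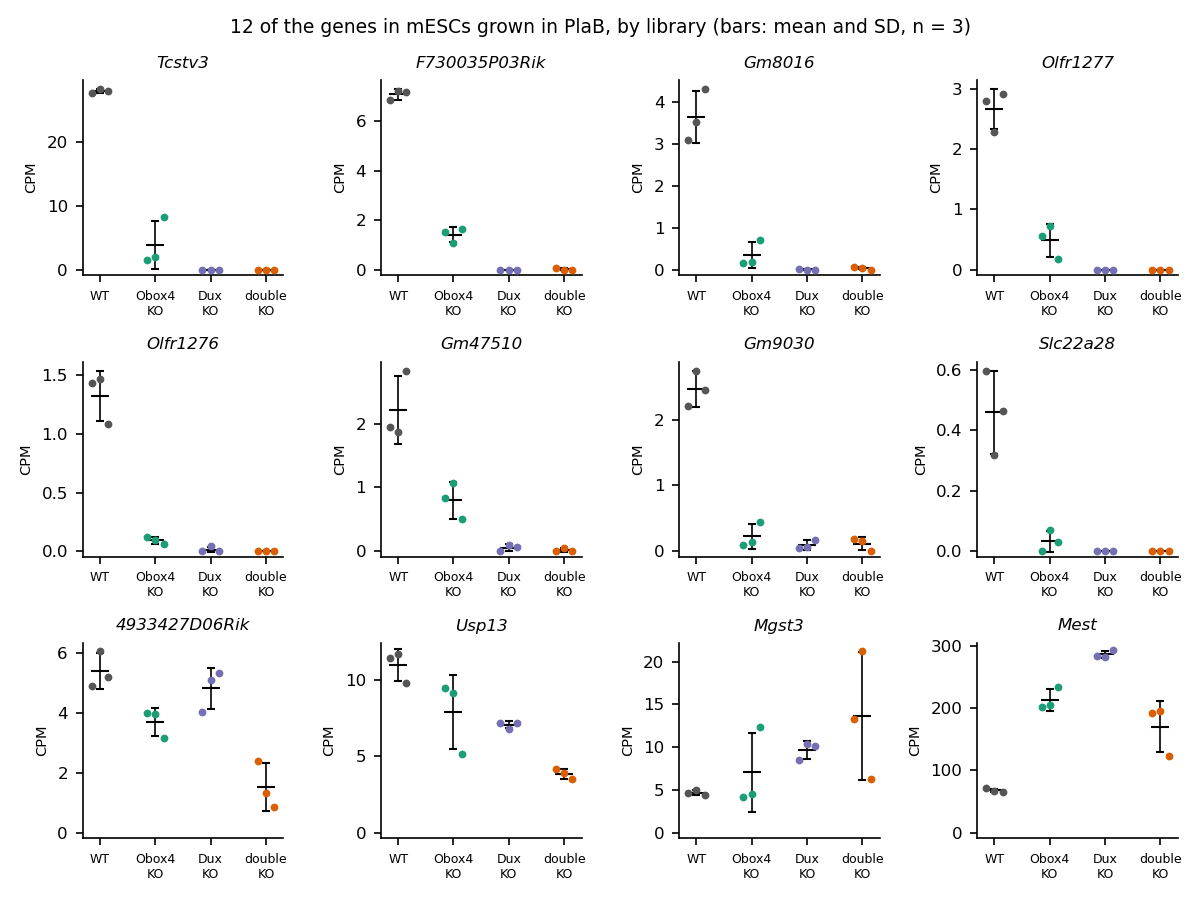
CPM of the 12 members called in double KO against WT mESCs in PlaB, with one point per library (n = 3 per group) and bars for mean and SD. For *Tcstv3*, *F730035P03Rik*, *Gm8016*, *Olfr1277*, *Olfr1276*, *Gm47510*, *Gm9030* and *Slc22a28* the *Dux* KO libraries lie near 0 like the double KO libraries, while *4933427D06Rik* and *Usp13* are lowest in double KO.

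Among the 10 that fell, 8 were already near 0 in *Dux* KO. *Tcstv3* had 27.7, 28.3 and 27.9 CPM in WT, 1.54, 1.96 and 8.2 in *Obox4* KO, and 0 in all *Dux* KO and double KO libraries. Taking 3 counts in the whole group as the detection limit, it was at least 1286-fold lower in *Dux* KO and at least 808-fold lower in double KO. In *Obox4* KO its log2 fold change was -2.89 ± 0.62 (SE), with an adjusted p of 0.01001 in edgeR's quasi-likelihood test, just outside the threshold, and the library at 8.2 CPM was replicate 3. Without that library it was -4.18 ± 0.18 and was called, with an adjusted p of 1.66e-06. *Olfr1277* had 2.81, 2.29 and 2.91 CPM in WT, 0.554, 0.722 and 0.175 in *Obox4* KO and 0 in the *Dux* KO and double KO libraries, at least 123-fold and at least 77.2-fold lower. Its neighbour *Olfr1276* had 1.43, 1.47 and 1.08 CPM in WT, 0.123, 0.0932 and 0.0584 in *Obox4* KO, 0, 0.041 and 0 in *Dux* KO and 0 in every double KO library, at least 38.4-fold lower. The WT libraries did not overlap the libraries of any KO group for these 3 genes. *F730035P03Rik* had 6.83, 7.22 and 7.18 CPM in WT, 1.54, 1.07 and 1.63 in *Obox4* KO and 0 in *Dux* KO, at least 326-fold lower, with 0.0624, 0 and 0 in double KO. *Slc22a28* was at 0.597, 0.32 and 0.463 CPM in WT and at 0 in *Dux* KO and double KO, at least 21.2-fold and at least 13.3-fold lower. Its double KO call was lost without double KO replicate 1 or 2 or WT replicate 1 or 3, with edgeR adjusted p of 0.0127 to 0.0147, and with the replicate number as a block (0.0127). In 2C embryos the same 8 genes stood at 0.784 to 1.02 times scramble in *Dux* KD, where the rule required at least 0.75.

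For 2 members the double KO was called and neither single KO was. *Usp13*, which encodes a deubiquitinase, had 11.4, 11.7 and 9.83 CPM in WT, 9.47, 9.18 and 5.14 in *Obox4* KO, 7.21, 6.82 and 7.22 in *Dux* KO and 4.18, 3.91 and 3.5 in double KO. Its log2 fold change was -1.37 ± 0.19 in double KO, with an edgeR adjusted p of 0.00011, -0.61 ± 0.18 in *Obox4* KO (0.026) and -0.74 ± 0.18 in *Dux* KO (0.0139). The interaction of both knockouts was -0.02 ± 0.26, with an adjusted p of 0.976, so the double KO value did not differ detectably from the sum of the single effects on the log2 scale. The lincRNA *4933427D06Rik* had 4.89, 6.05 and 5.17 CPM in WT, 4, 3.94 and 3.15 in *Obox4* KO, 4.02, 5.08 and 5.32 in *Dux* KO and 2.4, 1.34 and 0.84 in double KO. Its log2 fold change in double KO was -1.67 ± 0.26, with an adjusted p of 0.000291, and the interaction was -0.74 ± 0.36, with an adjusted p of 0.21 (edgeR in each case). All double KO libraries of both genes lay below all libraries of the other groups. Of the 33 members, the interaction was called for 1, *Mest* (1.25% of genes in either direction), and without the 2 libraries that stood apart for 5, *Gm8016*, *Gm9030*, *Mest*, *Mgst3* and *Neil3*. Neither *Usp13* nor *4933427D06Rik* was among them (adjusted p 0.301 and 0.1).

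*Mest*, an imprinted gene expressed from the paternal allele, moved the other way in mESCs. It had 71, 67.6 and 65.3 CPM in WT, 202, 205 and 233 in *Obox4* KO, 285, 283 and 294 in *Dux* KO and 192, 196 and 123 in double KO. In edgeR the log2 fold changes were 1.54 ± 0.13 in *Obox4* KO (adjusted p = 1.03e-05), 1.97 ± 0.13 in *Dux* KO (5.32e-07) and 1.45 ± 0.13 in double KO (3.16e-06). In 2C embryos *Mest* had 21.3 and 23.3 CPM in scramble KD, 29.7 and 28.7 in *Obox4* KD, 20.6 and 16.2 in *Dux* KD, 9.44 and 11.5 in double KD and 15 and 16.8 in rescue. *Mgst3* was at 4.66, 5.01 and 4.37 CPM in WT and 13.3, 21.2 and 6.3 in double KO mESCs, a log2 fold change of 1.64 ± 0.44 with an adjusted p of 0.0096 in edgeR. Its call was lost when double KO replicate 1 or 2 or any WT library was left out (adjusted p 0.0194 to 0.049), and with the replicate number as a block (0.0131).

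The 10 members that fell in double KO mESCs were also among the less rescued ones in embryos. Their rescue ratio had a median of 0.67, with 3 of 10 at 0.75 or more, and the other 26 had a median of 0.959, with 22 of 26 at 0.75 or more. This split was made after the values were seen and is a description. The 10 were more weakly expressed in 2C scramble embryos, with a median of 9.98 CPM against 47.4.

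Induction of *Obox4* in mESCs raised 2 members. The *Obox4* copies other than *Obox4-ps35* summed to 0.241 to 0.506 CPM at 0 h, 4.96 to 6.91 at 12 h and 7.03 to 8.13 at 48 h. Only 22 members had enough counts to be tested. At 48 h *Nlrp4f* and *Tcstv3* were called higher (3.37% of the 18625 genes tested were) and none lower (0.574%). *Nlrp4f* had 2.33, 2 and 1.98 CPM at 0 h, 3.43, 4.91 and 3.63 at 12 h and 8.47, 6.32 and 5.77 at 48 h, a log2 fold change at 48 h of 1.64 ± 0.22 with an adjusted p of 0.00092 in edgeR. *Tcstv3* had 0.894, 0.413 and 0.552 CPM at 0 h, 1.1, 1.17 and 2.01 at 12 h and 3.11, 2.4 and 2.85 at 48 h, a log2 fold change of 2.11 ± 0.34 with an adjusted p of 0.00249. No library at 48 h overlapped those at 0 h for either gene. With the replicate number as a block over all 9 libraries, edgeR's adjusted p of *Tcstv3* became 0.0105 and 1 member was called. With the block and the 0 and 48 h libraries alone, a fit added after the values were seen, it was 0.000256 and both genes were called. Without the block, its call was lost when 0 h replicate 2, 0 h replicate 3 or 48 h replicate 3 was left out (0.0169, 0.0193 and 0.0102). At 12 h no member was called (0.757% of genes were), and 6 of 22 had an unadjusted p under 0.05 (15.1% of all genes). *Mest* had a log2 fold change of 0.91 ± 0.11 at 48 h, with an edgeR adjusted p of 0.000351, and was not called because the fold was under the threshold.

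In single blastomeres of *Dux* KO embryos, no member was called between libraries labelled *Obox4* KO and *Obox4* WT, and no gene among 19182 was (0%). An unadjusted p under 0.05 was found for 7 of 36 members in edgeR (7.24% of all genes), and DESeq2 called 3 members and 247 genes in all. In the paper the *Obox4* KO deleted a cluster of copies and kept others, and the other blastomere of each embryo was genotyped by PCR. Summed reads of all copies therefore do not check the labels. The *Obox4* copies other than *Obox4-ps35* summed to 8.24 and 0 CPM in the libraries labelled KO, 3.26 and 0.132 in Het and 2.38 and 1.04 in WT. *Duxf3* was at 0 in all 6 libraries. Replicates differed widely, with an SD of the log2 difference of 0.873 to 1.32. *Tcstv3* had 25.9 and 25.4 CPM in WT, 6.31 and 13.2 in Het and 3.71 and 0.492 in the libraries labelled KO, the same direction as in double KD embryos, with an adjusted p of 0.531. *Gm8016* was likewise lower in KO without overlap (11.9 and 13.2 CPM in WT, 2.98 and 1.5 in KO) and *Gm9030* too (40 and 112 against 32.6 and 13.4). The blastomere counts hold reads at multiple positions in fractions, so their *Gm9030* level is not comparable with the main 2C level. In the other direction, *Gm33962* had 31.2 and 37 CPM in WT and 123 and 197 in KO, and *Zfp813-ps* 53.8 and 28.4 against 116 and 56.4. The median log2 fold change of the members was 0.35, against -0.03 over all genes. Both blastomeres labelled KO were below both WT ones for 7 members (30.8% of eligible genes) and above them for 7 (15.1%).

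In morulae no member was called between double KD and scramble KD, and no gene among 22142 was (0%). According to the paper, most double KD embryos degenerated or arrested earlier, and the morulae sequenced were the minority with morula-like morphology. Of 35 members tested, 9 had an unadjusted p under 0.05 in edgeR (17.8% of all genes), and DESeq2 called 3 members and 789 genes in all. The double KD libraries differed from each other, with an SD of the log2 difference of 0.744 against 0.201 between the scramble libraries, and *Duxf3* was at 0.286 and 7.3 CPM. Without double KD replicate 1, which leaves 1 library in that group, 15 members were called (10 higher) with 5790 genes in all, and without replicate 2, 4 were (2 higher) with 907 genes in all. *Nlrp4e* had 3.07 and 3.18 CPM in scramble and 5.75 and 17.5 in double KD morulae, and *Nlrp4f* 9.19 and 8.84 against 9.69 and 36.5. *Tcstv3* had 1.79 and 2.33 against 1.35 and 14.2. In all 3 genes the second double KD library was the high one. Both double KD libraries were above both scramble libraries for 16 members (47.5% of eligible genes) and below for 4 (16.4%), among them *Mdh1*, with 12.2 and 14 CPM in scramble and 6.18 and 4.52 in double KD.

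Binding of the tagged factors at the members' starts was read from CUT&RUN peak lists of mESCs that express 3×FLAG-OBOX4 (3 lists) or 3×FLAG-DUX (1 list). The start of each gene was its outermost annotated position, which need not be the start in use. For *Mest* it was chr6:30723547, with the RefSeq promoter at chr6:30733256-30733555, outside the bases searched. The same held for *4933427D06Rik* and *5730480H06Rik*, among others. An OBOX4 peak in at least 2 lists lay within 3000 bases of the annotated start of 11 members (30.6%), against 44.1% of the 9340 genes and 25.3% of the 261 other lowered genes. A DUX peak lay there for 1 member, *Zfp873* (2.78%), against 2.22% of the 9340 and 22.2% of the 261. The share with an OBOX4 peak was thus below that of expressed genes at large, and DUX peaks were at the background share. The peaks with the highest enrichment over background were at *Sertad3*, a transcriptional cofactor gene (14.2, 11.8 and 9.39-fold), and *Zfp873*, a zinc finger gene (12, 15.4 and 8.09-fold). The others were at *Cep55*, *Cited2*, *Gm21781*, *Gm8016*, *Gsto2*, *Immp1l*, *Mdh1*, *Tceal8* and *Usp13*.

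**Figure D5:**
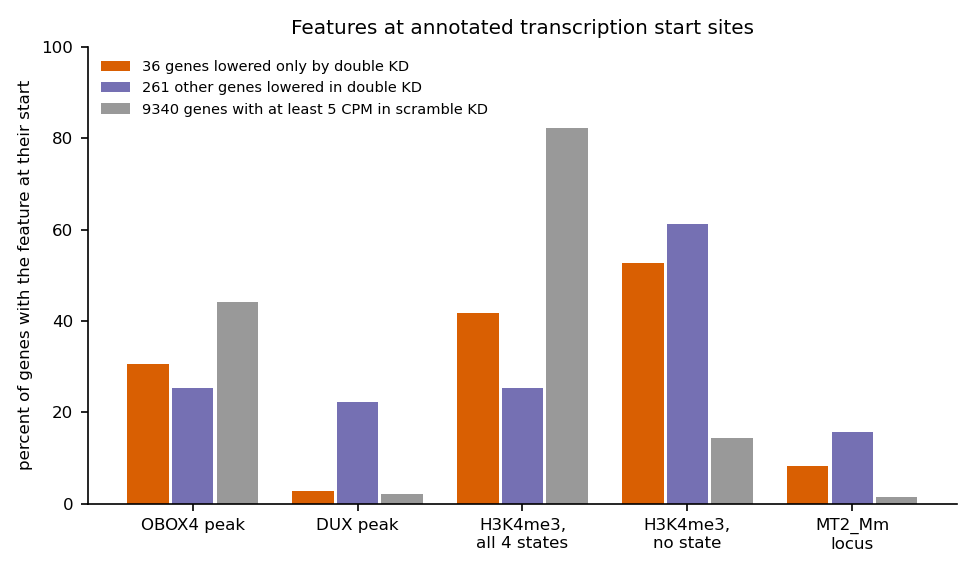
Percent of genes with a feature at the outermost annotated start for the 36 members, the 261 other genes lowered in double KD and the 9340 genes with at least 5 CPM in scramble KD. Peaks and MT2_Mm loci were counted within 3000 bases and H3K4me3 within 1000 bases. Members were at 30.6% for OBOX4 and 2.78% for DUX peaks, and 52.8% had H3K4me3 in no state, against 14.5% of the 9340 genes.

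The promoter of *Zfp873* (RefSeq, GRCm38.p6, chr10:82047873-82048172, plus strand) is shown because it was the only member start with peaks of both factors. Capitals mark the 130 bases that all 3 OBOX4 lists covered, and the DUX peak began 224 bases downstream of the annotated start.
Zfp873: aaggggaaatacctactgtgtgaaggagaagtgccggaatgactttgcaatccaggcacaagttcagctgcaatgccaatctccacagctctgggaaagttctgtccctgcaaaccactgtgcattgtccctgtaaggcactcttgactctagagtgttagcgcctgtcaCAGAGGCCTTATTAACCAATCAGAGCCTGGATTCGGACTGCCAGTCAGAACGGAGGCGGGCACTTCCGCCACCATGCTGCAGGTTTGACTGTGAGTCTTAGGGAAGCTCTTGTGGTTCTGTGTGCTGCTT

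RefSeq promoters, 250 bases before to 50 after the start, were found for 24 of the 36 members. The letters GGATTA, a core that bicoid-type homeodomains bind, were searched on both strands and were in 1 of the 24 (4.17%), against 5.6% of 6998 expressed genes and 7.16% of all 27025 promoters. The TATA letters TATAAA were in 1 of 24 (4.17%, against 6.23% and 14.2%). The member with GGATTA was *Usp13* (chr3:32817376-32817675, plus strand), shown with its 2 matches in capitals. Its start lay in OBOX4 peaks of all 3 lists, of 2.68, 6.35 and 3.52-fold enrichment.
Usp13: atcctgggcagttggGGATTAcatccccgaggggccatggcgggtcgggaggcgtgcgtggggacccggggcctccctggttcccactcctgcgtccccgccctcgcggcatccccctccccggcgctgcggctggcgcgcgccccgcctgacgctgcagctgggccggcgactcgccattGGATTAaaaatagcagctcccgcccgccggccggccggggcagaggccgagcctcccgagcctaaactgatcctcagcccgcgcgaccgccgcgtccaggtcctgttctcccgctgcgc

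The members' outermost annotated starts were often without H3K4me3, the histone mark of active or poised promoters, in mESCs. No peak of it lay within 1000 bases in WT or *Obox4* KO cells, with or without PlaB, for 19 members (52.8%), against 14.5% of the 9340 genes. In all 4 states 15 members (41.7%) had it, against 82.3%. The 19 include *Mest*, *4933427D06Rik* and *5730480H06Rik*, whose RefSeq promoters lay outside the bases searched, so the share without the mark may be too high. H3K27ac, a mark of active promoters, was at 14 members (38.9%) in WT cells without PlaB, against 57.3%, and H3K27me3, a repressive mark, at 3 (8.33%), against 13.1%. An MT2_Mm locus, the MERVL long terminal repeat, lay within 3000 bases of the start of 3 members (*F730035P03Rik*, *Gm45593* and *Gm9030*, 8.33%), against 1.53% of the 9340 genes and 15.7% of the 261. *F730035P03Rik* and *Gm9030* were among the 10 that fell in double KO mESCs, and the rescue ratios of the 3 were 0.583, 0.515 and 0.904.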

How the data were processed

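RNA-seq gene counts were deposited by the authors, who trimmed reads with fastp 0.23.2, aligned them with STAR 2.7.9a and counted them with featureCounts 2.0.1. The counts used were raw. The library kits keep strand, but the strand setting of these counts is not given in the sources used here, so antisense and overlapping genes are uncertain. Reads at multiple positions were discarded. A second 2C table (genes and repeats) and the blastomere table hold expected counts, which the authors deposited with reads at multiple positions counted in fractions, and per its file header the blastomere table ignores strand. Blastomere values were rounded to whole numbers. For CUT&RUN, the authors deposited MACS3 3.0.0a6 peaks (Bowtie2 2.4.1 alignments) with a fold enrichment ratio and a -log10 q. The 3 IgG libraries with conflicting labels were not assigned and not used.

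The 36 members and all lists were chosen with earlier results of these data known. Genes were named by level (10 highest), double KD ratio (10 lowest), rescue ratio (6 at each end), calls elsewhere, list membership and peaks. The other 10 members were named for completeness after their values were seen. Symbols were matched for 55141 of 55487 genes. CPM used library totals. Tests were edgeR 4.0.16 quasi-likelihood fits (R 4.3.3, limma 3.58.1) per experiment with TMM, its low-count filter and Benjamini-Hochberg adjustment, and DESeq2 1.42.0 as an alternative. Tables were handled in Python 3.11.15 with pandas 2.3.3 and numpy 2.4.6. Other alternatives were TMM scaling of the rule, other limits, no low-count filter, a replicate block, each library left out, and a stricter peak limit. Leaving out the PlaB libraries that stood apart, and the 0 and 48 h fits, were added after seeing the data. The scripts were tested on simulated data.

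2C totals were 26148176 to 69461986 counts, and each 2C library is a biological replicate of 30 embryos. Replicate numbers are shared between groups. Among the pairs of groups tested, the highest correlations between deviations of same-numbered libraries were at 0 and 48 h of induction. They were 0.751, 0.56 and 0.275, as hinted by the data and not by a stated batch. Between double KO and WT in PlaB they were 0.0345, 0.273 and 0.322.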

Additional observations from a re-analysis of the deposited data

Results flagged for a closer look

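*Mest* is singled out because the difference between *Dux* KO and WT mESCs was unlike that between double KO and *Obox4* KO mESCs. Of the *Obox4* copies other than *Obox4-ps35*, the *Obox4* KO cells kept some reads and the *Dux* KO cells had almost none. The groups therefore compare genotypes and not *Obox4* levels. In cells in PlaB the interaction of both knockouts was -2.07 ± 0.18 on the log2 scale, with an adjusted p of 0.000158 in edgeR's quasi-likelihood test over 22328 genes. Its level was 71, 67.6 and 65.3 CPM in WT, 202, 205 and 233 in *Obox4* KO, 285, 283 and 294 in *Dux* KO and 192, 196 and 123 in double KO, so the double KO was below both single knockouts in all 3 libraries. Without *Obox4* KO replicate 3 and double KO replicate 3, which stood apart from their groups, the interaction was -1.80 ± 0.06.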

How the results depend on the processing

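The number of members was 5 when single knockdowns had to reach 0.9 times scramble, 4 with a double KD limit of 0.4, and 29 to 56 when 1 library was left out (56 without double KD replicate 2). Of the 36, between 22 (without scramble replicate 2) and 35 were kept, with 23 without scramble replicate 1. TMM scaling gave 51, with 8 shared, and the table with fractional counts of shared reads 39, with 26 shared. In blastomeres 3 members were called by DESeq2, 1 with no filter on low counts and 0 to 3 without 1 library (2 without KO replicate 1, 3 without KO replicate 2). In morulae these numbers were 3, 4 and 0 to 15 (15 without double KD replicate 1, 4 without replicate 2). After 48 h of induction 1 to 2 were called without 1 library (1 without 0 h replicate 2 or 48 h replicate 3). With a peak -log10 q of at least 10, 6 members kept an OBOX4 peak. The cause of these shifts was not tested. No fold change named for PlaB double KO or 48 h of induction changed sign in any setting run. With the replicate number as a block, 36 members were called in 2C double KD, 0 in blastomeres and morulae, 10 in PlaB double KO, where *Mgst3* and *Slc22a28* (adjusted p 0.0131 and 0.0127) were lost, and 1 after 48 h of induction. Outside the induction series, same-numbered libraries had correlations of deviations from -0.277 to 0.191 in 2C embryos. They were 0.108 to 0.143 between each knockdown and scramble and -0.247 between rescue and scramble. In PlaB they were 0.0345, 0.273 and 0.322 between double KO and WT, and 0.116 to 0.223 between *Obox4* KO and double KO. Of 12 PlaB libraries 8 correlated best with their own number. Weak pairing there is thus not excluded, a hint from the data and not the design. With 2 libraries per 2C group, differences near the limits of the rule are not resolved.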
